A study of Mus musculus with 22 samples.

Results

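The genes described are those of the amyloid precursor family (App, Aplp1 and Aplp2), the secretase genes Bace1, Adam10 and Psen2, the tau gene Mapt and the insulin-degrading enzyme gene Ide. They were chosen by name, with earlier results of these data known, and all 8 were found among the 23361 genes of the deposited matrix. No synuclein gene is among the 8; other synuclein genes were counted with the wider pathway. RNA came from microdissected hippocampal CA1 of 22 wild-type female mice of a Swiss Webster x DBA/C57BL6 F1 background, with 1 library for each mouse. AL mice were fed ad libitum on the control diet. CR mice were under calorie restriction, with the reduction specific to carbohydrates, from young adulthood until they were killed. The CR mice studied at 15 months had thus been restricted for longer than those studied at 5 months. There were 5 AL and 5 CR mice at 5 months of age, and 6 AL and 6 CR mice at 15 months.

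The amyloid precursor protein is a membrane protein of neurons that is cut by secretases. Cleavage by the beta-secretase BACE1 and then by the gamma-secretase complex, whose catalytic subunit is a presenilin, releases amyloid-beta, whereas cleavage by the alpha-secretase ADAM10 falls within the amyloid-beta sequence and prevents its release. APLP1 and APLP2 are paralogs that lack the amyloid-beta sequence, the insulin-degrading enzyme breaks down amyloid-beta and insulin, and tau binds axonal microtubules and aggregates in Alzheimer's disease.

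In the GENCODE M21 annotation of GRCm38, the assembly of the mm10 build used by the authors, App covers chr16:84949685-85173766, Aplp1 chr7:30434982-30445535 and Aplp2 chr9:31149557-31211815, all on the minus strand. Bace1 lies at chr9:45838580-45864399 and Adam10 at chr9:70678997-70780229, both on the plus strand. Psen2 lies at chr1:180227004-180263438 and Ide at chr19:37268743-37337852 on the minus strand, and Mapt at chr11:104231390-104332090 on the plus strand. The library kit did not mark strand, so reads of a gene and of one on the other strand cannot be told apart where exons overlap. Rnf214, on the other strand, overlaps exons of Bace1 and had group means between 20.9 and 21.7 FPKM. Gm10791, on the other strand of App, did not exceed 2.97 FPKM in any library.

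Aplp2 differed from both App and Aplp1 in its level and in the sign of its age estimate in AL mice. On the log2 scale the estimates were 0.19 for Aplp2, -0.11 for App and -0.18 for Aplp1. None of the 3 passed the adjusted p threshold, and each changed sign in some other fit given below. The difference in sign was therefore not established. The 250 bases before the start of the 3 precursor family genes are shown because of this contrast, and their part in it was not tested. They are RefSeq sequences of GRCm38.p6, placed by the RefSeq start, which for App lies inside the GENCODE gene, so that 59 of its bases fall within the span given above (0 for Aplp1 and Aplp2). They are read 5′ to 3′ on the minus strand, and capitals mark the letters GGGCGG, a GC box, searched on both strands.
App, chr16:85173708-85173957: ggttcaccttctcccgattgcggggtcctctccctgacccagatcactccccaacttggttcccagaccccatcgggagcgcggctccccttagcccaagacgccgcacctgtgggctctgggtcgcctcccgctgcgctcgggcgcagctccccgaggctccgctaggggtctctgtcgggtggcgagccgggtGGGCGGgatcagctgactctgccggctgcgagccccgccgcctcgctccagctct
Aplp1, chr7:30445583-30445832: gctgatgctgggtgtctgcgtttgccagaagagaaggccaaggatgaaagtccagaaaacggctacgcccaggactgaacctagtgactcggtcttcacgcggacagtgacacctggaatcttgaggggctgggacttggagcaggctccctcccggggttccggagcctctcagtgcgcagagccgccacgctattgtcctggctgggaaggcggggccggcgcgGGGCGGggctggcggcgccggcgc
Aplp2, chr9:31211849-31212098: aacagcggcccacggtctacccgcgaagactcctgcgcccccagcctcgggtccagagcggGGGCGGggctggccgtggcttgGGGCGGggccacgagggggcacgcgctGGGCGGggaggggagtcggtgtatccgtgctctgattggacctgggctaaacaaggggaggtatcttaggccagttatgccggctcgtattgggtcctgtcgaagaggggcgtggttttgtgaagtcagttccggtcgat

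App and Aplp1 each held 1 GC box in this window and Aplp2 held 3, and 32.7% of 32851 RefSeq promoter windows of the same length held at least 1. None of the 3 windows held the letters TATAAA on either strand, which 12.4% of all windows did. Their GC contents were 70.8% for App, 66.0% for Aplp1 and 66.4% for Aplp2, beside a median of 52.4%. Promoter windows were matched for 6 of the 8 genes, all but Bace1 and Mapt. A match of letters is a description and not a binding site.

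Levels were compared as FPKM, a fragment abundance scaled by transcript length and library size. Over the 22 libraries App averaged 452 FPKM and ranged from 354.5 to 579, and Aplp1 also averaged 452 FPKM and ranged from 369 to 539. These precursor genes were not ordered, since App exceeded Aplp1 in 12 of 22 libraries. Aplp2 followed with a mean of 153 FPKM and Mapt with 99.8 FPKM. Among the secretase genes, Bace1 averaged 31.7 FPKM and Adam10 averaged 25.8 FPKM, with Bace1 the higher in 22 of 22 libraries. Ide averaged 13.0 FPKM and Psen2 averaged 10.9 FPKM, and Ide was the higher in 19 of 22. Every other neighbouring pair kept its order in 22 of 22 libraries. The coefficient of variation over all libraries was lowest for Bace1, at 6.94%, and highest for Psen2, at 15.3%.

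**Figure D1:**
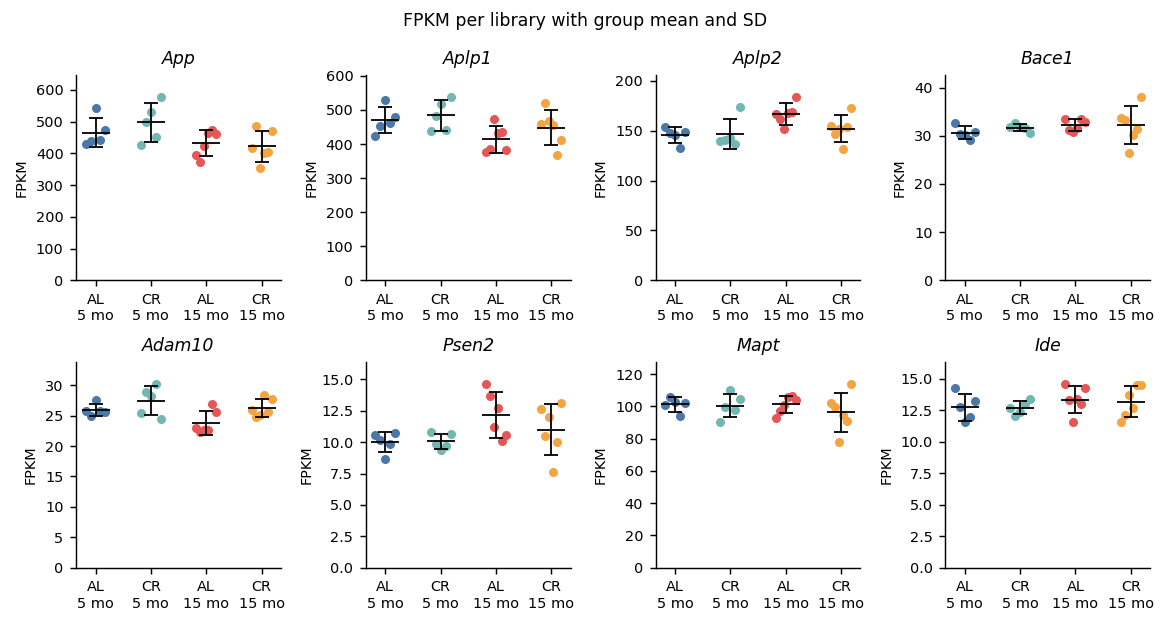
FPKM (y axis, starting at 0) of each of the 8 genes in each library of the 4 groups (x axis), where points are libraries and black bars give the group mean and SD. The groups overlap in every panel, and the spread of Psen2 is wider at 15 months than at 5 months.

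Normal aging was examined by comparing AL mice at 15 and at 5 months. None of the 8 genes passed an adjusted p of 0.05 (limma on log2(FPKM + 0.1), Benjamini-Hochberg adjustment over 16978 genes), whereas 20.6% of all genes tested did, 10.7% as higher and 9.97% as lower. In 0 of the 8 did the libraries of both ages separate without overlap, against 14% of all genes. The estimates were positive for 4 of the 8, and the median size of the log2 fold change was 0.12, beside 0.20 over all genes and 0.16 over the 8034 genes with a mean of at least 10 FPKM, a class added after the data had been seen. In that class 21.1% of genes were called.

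Within the precursor family, Aplp2 had the lowest adjusted p of the 8 genes. Its AL libraries held 154, 148, 145, 133 and 149 FPKM at 5 months and ranged from 151 to 184 FPKM, with a median of 168, at 15 months. All 6 older libraries lay above the younger median, and the lowest of them fell below the highest younger library. The estimate was 14.4% higher at 15 months (95% interval 3.02 to 27.0%; log2 fold change 0.19, limma adjusted p = 0.0624; exact two-sided permutation p = 0.00866), so it missed the threshold after adjustment.

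App held 429, 440.0, 542, 443 and 475 FPKM in AL mice at 5 months and 372 to 473 FPKM, median 444, at 15 months. Aplp1 held 424, 454, 529, 463 and 480.0 FPKM at 5 months and 376 to 473 FPKM, median 409.9, at 15 months. Both overlapped between ages, with 3 of 6 older libraries above the younger median for App and 1 of 6 for Aplp1. The log2 fold change was -0.11 for App (adjusted p = 0.472 by limma) and -0.18 for Aplp1 (adjusted p = 0.174 by limma), and the interval for Aplp1 ran from -23.3% to 1.01%.

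Of the secretase genes, Psen2 held 10.6, 10.2, 8.70, 9.83 and 10.8 FPKM in AL mice at 5 months and 10.1 to 14.6 FPKM, median 11.97, at 15 months. The older libraries lay above the younger median in 5 of 6 cases and were more spread, with an SD of 1.82 against 0.816 FPKM. Psen2 was estimated 20.5% higher (95% interval 1.49 to 43.0%; limma adjusted p = 0.111; exact two-sided permutation p = 0.0390). Adam10 held 25.8, 25.0, 27.6, 25.8 and 25.6 FPKM at 5 months and 22.3 to 27.0 FPKM, median 22.8, at 15 months. Only 1 of its 6 older libraries lay above the younger median, and the log2 fold change was -0.13 (limma adjusted p = 0.157; exact two-sided permutation p = 0.0606). An alternative form of that permutation test, added after the p-values had been seen, gave p = 0.0498 (exact). Bace1 held 32.7, 30.4, 30.1, 29.0 and 30.7 FPKM at 5 months and 30.7 to 33.4 FPKM, median 32.3, at 15 months. Its log2 fold change was 0.07 (adjusted p = 0.435 by limma).

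Mapt, which encodes tau, held 101, 106, 103, 94.0 and 102 FPKM in AL mice at 5 months and 93.1 to 107 FPKM, median 103, at 15 months. The ranges nearly coincided, and the 95% interval of the difference ran from -10.3% to 11.4% (adjusted p = 0.999 by limma). Ide held 14.2, 12.8, 11.6, 11.9 and 13.3 FPKM at 5 months and 11.6 to 14.6 FPKM, median 13.4, at 15 months, with an interval of -5.59% to 16.1% (adjusted p = 0.539 by limma).

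Marker genes of hippocampal and neighbouring regions moved with age. Markers of CA1 pyramidal neurons were lower for 4 of 7 genes in AL mice at 15 months, with estimates from -3.81 for Spink8 to 0.63 for Wfs1, which was not called, and markers of neocortex and subiculum were higher for 7 of 10. The mean log2(FPKM + 0.1) of the CA1 markers ranged from 5.18 to 6.22 in AL libraries at 5 months and from 3.43 to 5.06 at 15 months, and that of the neocortex and subiculum markers from 2.61 to 3.13 and from 3.25 to 4.40. No marker of either list was at 0 in any library. Against 10.7% of all genes called higher and 9.97% called lower, choroid plexus markers were lower for 4 of 7 genes, oligodendrocyte markers for 1 of 8, microglia markers for 1 of 8, dentate granule cell markers for 1 of 4 and CA3 markers for 1 of 3. Thalamus markers were higher for 1 of 4, astrocyte markers had 1 higher and 1 lower of 8, and 0 of 6 endothelial and 0 of 6 interneuron markers were called. All 8 oligodendrocyte markers had estimates below 0, from -1.10 to -0.75, and their mean log2 level differed by -0.87 (exact two-sided permutation p = 0.0130). The choroid plexus mean differed by -1.99 (exact two-sided permutation p = 0.00866). Their part in the results was not tested. The marker lists were chosen with earlier results of these data known. The p-values of marker means and of the region score are therefore descriptive only, here and below. The region score, the neocortex and subiculum mean minus the CA1 mean, rose by 2.73 with age (exact two-sided permutation p = 0.00433, the smallest possible). With it as a covariate 0 of all genes tested were called in AL mice (2274 at an unadjusted p under 0.05). The estimate for Aplp2 became -0.02 and that for Psen2 0.06, beside 0.19 and 0.27 without it. The score ran from -3.60 to -2.06 in AL libraries at 5 months and from -1.31 to 0.87 at 15 months. These ranges do not overlap, so the fit with the score cannot tell age and region apart in AL mice. No other fit of region markers was made, and in bulk tissue fewer cells of a type and less RNA per cell cannot be told apart.

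Aging under restriction was examined by comparing CR mice at 15 and 5 months. Again 0 of the 8 genes were called, against 3.36% of all genes, and 0 of the 8 separated without overlap, against 3.26%. App had the largest estimate: its CR libraries held 425, 501, 532, 451 and 579 FPKM at 5 months and 354.5 to 487 FPKM, median 411, at 15 months. None of the 6 older libraries lay above the younger median, but the ranges overlapped. The difference was -15.0% (95% interval -26.7 to -1.48%; limma adjusted p = 0.224; exact two-sided permutation p = 0.0563). Aplp2 had an estimate of 0.05 on the log2 scale and Psen2 one of 0.10, with adjusted p = 0.761 and 0.693 by limma. The region score was 1.73 higher in the older CR libraries (exact two-sided permutation p = 0.0130). With it as a covariate the log2 fold change of App was -0.21, beside -0.24 without it. Choroid plexus markers were lower for 6 of 7 genes in the older CR mice (3.36% of all genes were called in either direction), and their mean log2 level differed by -3.62 (exact two-sided permutation p = 0.00433), with a range of 0.47 to 5.05 at 5 months and -2.42 to -1.07 at 15 months. Their part in these values was not tested.

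The remaining genes varied as follows under CR. Aplp1 held 439, 483, 518, 442 and 539 FPKM in the younger CR mice and 369 to 520 FPKM, median 458, in the older ones. Aplp2 held 139.9, 140.5, 143, 137 and 174 FPKM and then 132 to 173 FPKM, median 153. The value of 174 came from 1 library that stood apart from the other 4 of its group. Bace1 held 31.8, 32.7, 31.9, 31.6 and 30.5 FPKM and then 26.4 to 38.1 FPKM, median 32.3. Adam10 held 25.4, 28.9, 28.2, 30.2 and 24.5 FPKM and then 24.7 to 28.5 FPKM, median 25.8. The older CR libraries were thus wider than the younger ones for Bace1, with an SD of 3.91 against 0.772 FPKM. Psen2 held 10.8, 9.82, 9.41, 9.70 and 10.6 FPKM and then 7.63 to 13.1 FPKM, median 11.2. Mapt held 90.7, 99.4, 110.3, 97.8 and 105 FPKM and then 77.8 to 114 FPKM, median 97.3. Ide held 12.7, 12.1, 12.4, 13.0 and 13.4 FPKM and then 11.6 to 14.5 FPKM, median 13.2. Each of these overlapped between ages, with limma adjusted p of 0.551 or more.

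The diets were compared at 15 months. None of the 8 genes was called, against 0.742% of all genes, and 0 of the 8 separated, against 0.984%. Adam10, the alpha-secretase, held 22.3 to 27.0 FPKM in AL mice (median 22.8) and 24.7 to 28.5 FPKM in CR mice (median 25.8). All 6 CR libraries lay above the AL median, while 2 AL libraries reached into the CR range. The estimate was 10.4% higher under CR (95% interval 1.25 to 20.3%; limma adjusted p = 0.231; exact two-sided permutation p = 0.0325). Aplp2 ranged from 132 to 173 FPKM in CR mice, with 1 of 6 libraries above the AL median, and its log2 fold change was -0.14 (limma adjusted p = 0.313; exact two-sided permutation p = 0.0498). The other 6 genes had adjusted p of 0.498 or more by limma. The region score differed by -1.22 between CR and AL libraries, with an exact two-sided permutation p = 0.0628.

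At 5 months the estimates between diets ran from -0.01 for Mapt to 0.09 for App on the log2 scale, and 0 of the 8 genes were called. Over all genes 0% were called by limma, with 789 genes at an unadjusted p under 0.05 and 1 call when the variance trend was left out. Without overlap were 0 of the 8 and 1.36% of all genes. Of the 8 intervals, that of Psen2 had the lowest lower limit, -15.8%, and that of App the highest upper limit, 24.4%. Changes of that size were thus not shown to be absent. The region score differed by -0.22 (exact two-sided permutation p = 0.516).

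Restricted mice at 15 months were also set against AL mice at 5 months. None of the 8 genes was called, against 3.12% of all genes, and 0 of the 8 separated, against 2.94%. The estimates ran from -0.14 for App to 0.11 for Psen2. Between these groups the region score differed by 1.51 (exact two-sided permutation p = 0.0260), the CA1 marker mean by -0.93 (p = 0.0563) and the choroid plexus marker mean by -2.08 (p = 0.00433), with 3 of 7 choroid plexus markers called lower. With the region score as a covariate the estimate for App was -0.12 and that for Psen2 was -0.0040. This comparison shares libraries with those above, so its values are given side by side only. The age by diet term, which asks whether the age difference depended on diet, called 0 of the 8 genes and 0% of all genes by limma (1301 at an unadjusted p under 0.05). It ranged from -0.17 for Psen2 to 0.07 for Aplp1, so no difference in the age effect between diets was shown for any of the 8.

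**Figure D2:**
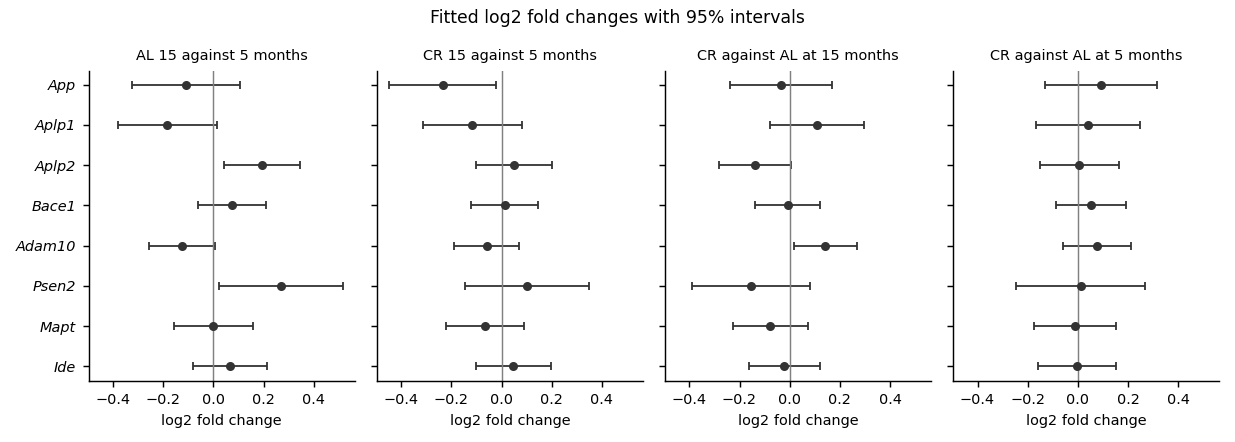
Fitted log2 fold change (x axis) with its 95% interval for each of the 8 genes (y axis) in 4 comparisons. Intervals lie off 0 for Aplp2 and Psen2 with age in AL mice, App with age in CR mice and Adam10 between diets at 15 months, and none of these passed adjustment over 16978 genes.

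Ratios within a library do not depend on how libraries were scaled. The ratio of Aplp2 to App averaged 0.315 ± 0.034 (SD, n = 5) in younger AL libraries. It averaged 0.389 ± 0.035 (SD, n = 6) in older AL libraries, with the lowest older ratio, 0.356, just under the highest younger one, 0.358. Under CR the ratio of Aplp2 to App averaged 0.296 ± 0.023 (SD, n = 5) at the younger age and 0.363 ± 0.045 (SD, n = 6) at the older. The ratio of Bace1 to Adam10 averaged 1.18 ± 0.072 (SD, n = 5) in younger AL libraries and 1.35 ± 0.082 (SD, n = 6) in older ones. These also overlapped, with a lowest older ratio of 1.24 and a highest younger one of 1.27. For the ratio of Bace1 to Adam10 the younger CR libraries averaged 1.16 ± 0.088 (SD, n = 5) and the older ones 1.22 ± 0.14 (SD, n = 6). Under CR both ratios overlapped between ages. Aplp1 to App stayed between group means of 0.964 and 1.07. No test was made of the ratios, and they were not adjusted for the region score.

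The wider pathway was described by 60 genes in 7 lists. In AL mice 14 of the 60 were called with age, 8 higher and 6 lower, which is near the 20.6% of all genes called. Among adaptors and sorting receptors of the precursor protein, 5 of 16 were called. Sorl1, a sorting receptor that directs the precursor away from cleavage, held 42.2, 36.2, 49.9, 41.4 and 41.9 FPKM at 5 months and 23.6 to 31.0 FPKM at 15 months. No library overlapped, and Sorl1 fell by 0.65 on the log2 scale (limma adjusted p = 0.00726). Itm2b, which encodes an inhibitor of precursor processing, fell by 0.37 (limma adjusted p = 0.0129), and Apba1, an adaptor of the precursor tail, rose by 0.34 (limma adjusted p = 0.0209).

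Of 5 other gamma-secretase subunit genes only Aph1b was called, and it fell by 0.40 (limma adjusted p = 0.00814). Sort1, a related sorting receptor, fell by 0.31 and Gga3, an adaptor in BACE1 trafficking, rose by 0.23 (limma adjusted p = 0.0223 and 0.0361). Of 7 other amyloid-beta degrading enzymes, Ece1 rose from 9.06 to 11.3 FPKM at 5 months to 13.1 to 15.99 FPKM at 15 months (log2 fold change 0.52, limma adjusted p = 0.000894), and Pitrm1 rose by 0.20 (limma adjusted p = 0.0159). None of 7 other alpha- and beta-site protease genes was called.

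Of 16 tau kinase and phosphatase genes, 3 were called. Mark1 and Mark2, kinases that phosphorylate tau in its repeats, rose by 0.45 and 0.30 (limma adjusted p = 0.00464 and 0.00642), and the Src-family kinase Fyn fell by 0.19 (limma adjusted p = 0.0102). Of 7 other microtubule-associated genes, Map6 rose by 0.49 and Map4 fell by 0.43 (limma adjusted p = 0.00471 and 0.0116). Of 2 other synuclein genes, Sncb, which encodes beta-synuclein, held 208, 203, 236, 214 and 211 FPKM at 5 months and 255 to 353 FPKM at 15 months, and rose by 0.46 (limma adjusted p = 0.00632). With the region score as a covariate 0 of the 60 and 0 of all genes tested were called. The estimates moved unequally in that fit, which cannot tell age and region apart in AL mice. Ece1 was then at 0.63, Mark2 at 0.44, Apba1 at 0.42, Aph1b at -0.50 and Sncb at 0.37, and Sorl1 was at -0.23, Itm2b at -0.13, Mark1 at 0.11 and Map4 at -0.06.

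**Figure D3:**
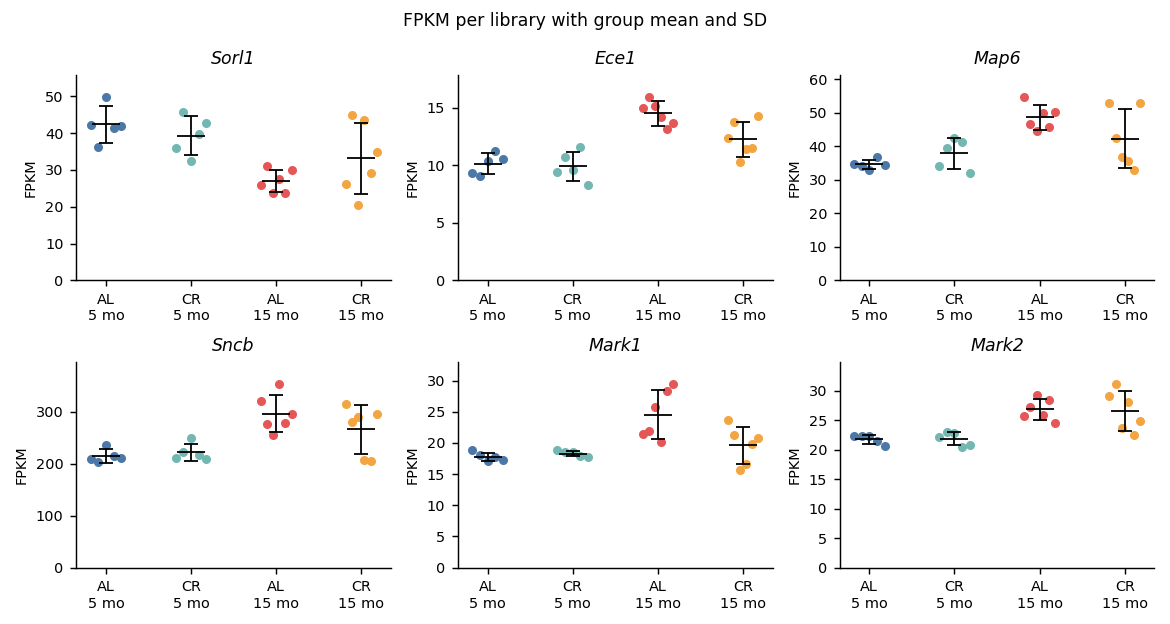
FPKM (y axis, starting at 0) of 6 pathway genes in each library of the 4 groups (x axis), with group mean and SD as black bars. AL libraries at 15 months lie below those at 5 months for Sorl1 and above them for the other 5 genes. CR libraries at 15 months reach into the younger AL range for Sorl1, Ece1, Map6 and Sncb. Those of Mark1 lie on both sides of that range with none inside it, and those of Mark2 lie above it.

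**Figure D4:**
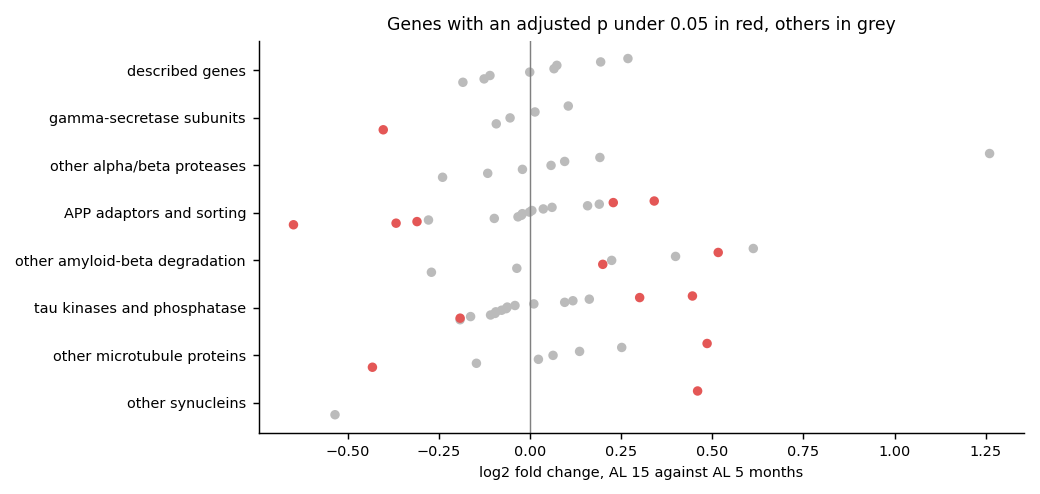
Log2 fold change between AL mice at 15 and 5 months (x axis) for the 8 described genes and the 7 pathway lists (y axis), with each point a gene and red points those with an adjusted p under 0.05. No point of the top row is red, and 14 of the 60 pathway genes are.

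In CR mice 1 of the 60 was called with age, against 3.36% of all genes: Mark2 rose by 0.27 (limma adjusted p = 0.0416). The call held in 17 of 34 settings, with estimates of 0.22 to 0.36 and adjusted p of 0.0129 to 0.176 by limma. It was also the 1 called when older CR mice were set against younger AL mice, at 0.28 (limma adjusted p = 0.0385), against 3.12% of all genes, and that call held in 24 of 34 settings. Between diets 0 of the 60 were called at either age, and the age by diet term called 0.

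Deviations from the group means were correlated between the 8 genes over the 22 libraries, which share dissection and scaling, as a description. App and Mapt had a Pearson r of 0.74, Bace1 and Mapt 0.73, Aplp2 and Ide 0.58, and App and Aplp1 0.55. The lowest values were -0.67 for Aplp1 and Ide and -0.54 for Adam10 and Psen2. Among 8026 genes the one most alike was Clstn1 for App (r = 0.82) and for Mapt (r = 0.86), Rab1b for Aplp1 (r = 0.94), Rnf130 for Aplp2 (r = 0.84), Dip2b for Bace1 (r = 0.87), Vti1a for Adam10 (r = 0.84), Slc9a3r2 for Psen2 (r = 0.92) and Iars for Ide (r = 0.85).

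**Figure D5:**
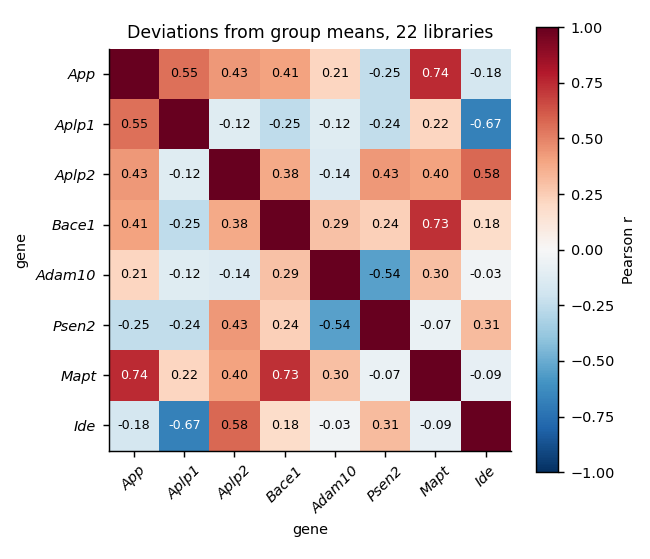
Pearson r between each pair of the 8 genes (both axes) of deviations from group means over 22 libraries, with red for positive and blue for negative values. The highest values are 0.74 for App with Mapt and 0.73 for Bace1 with Mapt, and the lowest is -0.67 for Aplp1 with Ide.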

How the data were processed

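Hippocampal CA1 mRNA libraries of 22 mice were sequenced. TopHat (mm10), Picard duplicate marking and Cufflinks were run by the authors to give FPKM, with corrections for fragment bias and multiply mapped reads; versions and annotation are not given in the sources used here. The deposited FPKM values were used as they stand. Read counts could not be recovered from them, so the depth behind each library's values is not known here (the study gives only an average over samples), and intervals rest on the spread between libraries. Small RNA genes held 40.2 to 64.3% of the summed FPKM.

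Genes with a mean of at least 0.1 FPKM (16978) were fitted on log2(FPKM + 0.1), where fold changes of low genes are understated, with limma 3.58.1 in R 4.3.3, all 4 groups in 1 model with trended variance, and Benjamini-Hochberg adjustment at 0.05. Single genes and marker scores also had exact two-sided permutation tests (scipy 1.17.1, doubling the smaller tail), whose smallest p is 0.00433 with age, 0.00217 between diets at 15 months and 0.00794 at 5 months. After the p-values had been seen, a form using the absolute difference was tried in its place; the form run first was kept, and the second is given as an added alternative. The background of genes with a mean of at least 10 FPKM was likewise added after the data had been seen. The genes, lists and markers were chosen with earlier results of these data known. Pathway genes named were among those called, and the nearest 3 genes by correlation were taken at a mean of at least 10 FPKM. The fit was tested on simulated data with 200 genes altered by 2 on the log2 scale. Of these, 196 were recovered for age in AL mice and 190 between diets at 15 months. The 8 genes had estimates of -0.18 to 0.27 with age in AL mice. Recovery of changes that small was not simulated, so the power to call them is not known here.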

Additional observations from a re-analysis of the deposited data

Results flagged for a closer look

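Aplp2 in CR mice at 5 months had 1 library far from the others. Replicate 4 held 174 FPKM, the nearest library held 143 FPKM, and the gap took 0.832 of the range of the group, above the critical 0.71 for 5 libraries. It was 1 of 32 groups tested, and chance gives about 1 in 20. That library is not part of the comparison of AL mice. Without it the log2 fold change of Aplp2 with age in AL mice stayed at 0.19. Its limma adjusted p, which rests on a variance pooled over all 4 groups, became 0.0374.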

How the results depend on the processing

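None of the 8 genes was called in any comparison with pseudocounts of 1 or 0.01, other filters on low values, a common median or the region score as a covariate. With age in AL mice, quantile normalization called 1 of them (Aplp2, log2 fold change 0.29, limma adjusted p = 0.00947), beside 3354 of all 16978 genes. A separate fit called 1 (Aplp2, limma adjusted p = 0.0321), beside 4313 of 16978. Equal sums without small RNA genes, which moved the median of all genes by 0.11, called 2, beside 4087 of 16983. These were Aplp2 at 0.31 and Psen2 at 0.39 (limma adjusted p = 0.00372 and 0.0368). Leaving out single libraries called 0 to 1, Aplp2 each time, without AL 15 months replicate 2 (limma adjusted p = 0.0410) and CR 5 months replicate 4 (0.0374), and CR 15 months replicates 3 (0.0460) and 5 (0.0489). Of all 16978 genes these fits called 3438, 3487, 3650 and 3603 in that order. The CR libraries are not part of the AL comparison, and without each of them the log2 fold change of Aplp2 stayed at 0.19. Of all genes with age in AL mice, 1809 were higher and 1693 lower, against 1441 and 2286 with a common median and 3205 and 882 with equal sums; the cause was not tested.

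Of the 60 pathway genes, the region covariate left 0 with age in AL mice, in CR mice and in older CR against younger AL mice. Of all 16978 genes it left 0, 17 and 63. Ece1 was then at 0.63 with age in AL mice, beside 0.52 without the covariate. Mark2 was at 0.36 and 0.35 in the latter comparisons, beside 0.27 and 0.28 without it. The cause of these shifts was not tested. The call with age in CR mice went to 0 with a mean of at least 1 FPKM, a common median, no variance trend and a separate fit, and the call in older CR against younger AL mice went to 0 with a common median and a separate fit. Leaving out single libraries gave 0 to 3 calls in both of these and 0 to 1 between diets at 15 months. Of all 16978 genes, such fits called 331 to 775 with age in CR mice and 181 to 925 in older CR against younger AL mice. Of all genes, CR against AL at 15 months called 126, but 96 with a pseudocount of 0.01, 77 with quantile normalization, 209 with equal sums, 0 with a separate fit (2003 at an unadjusted p under 0.05) and 1 with the region covariate, and 15 to 732 without single libraries; with age in CR mice 570 became 304 at a mean of at least 1 FPKM, 324 in a separate fit and 17 with the region covariate, and in older CR against younger AL mice 529 became 340, 218 and 63.

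Over 31 pairs of libraries with the same replicate number, r of the deviations from group means ran from -0.14 to 0.16. Pairs with different numbers were not compared, so whether the numbers pair the libraries was not tested. A replicate block gave 0 calls among the 8 genes. It called 18 of 60 pathway genes with age in AL mice, beside 3754 of all 16978 genes. In older CR against younger AL mice it called 2 of 60, beside 684 of all 16978. It called 323 of all genes between diets at 15 months, beside 126 without the block, and gave -0.015 for Bace1 with age in CR mice.

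No reversed estimate was called. With the region covariate, the log2 fold change with age in AL mice became 0.087 for Aplp1, -0.025 for Aplp2, -0.068 for Bace1 and -0.12 for Ide. With age in CR mice it became 0.055 for Aplp1, -0.088 for Aplp2, -0.076 for Bace1, -0.068 for Ide and -0.032 for Psen2. Between diets at 15 months it became -0.012 for Aplp1, 0.054 for Bace1 and 0.060 for Ide. Psen2 became -0.0040 in older CR against younger AL mice, and the age by diet term of Aplp1 became -0.032. With age in AL mice App became 0.041 and Mapt 0.085 with quantile normalization, and App 0.0082 and Mapt 0.12 with equal sums, which also gave -0.00749 for Aplp1 in the age by diet term. Between diets at 15 months a common median gave 0.017 for Bace1 and 0.00547 for Ide. Without single libraries, the diet difference at 15 months ran from -0.076 to 0.015 for App, -0.059 to 0.046 for Bace1 and -0.061 to 0.016 for Ide. The age difference ran from -0.037 to 0.068 for Bace1 in CR mice and -0.027 to 0.024 for Mapt in AL mice, and the diet difference at 5 months from -0.046 to 0.025 for Mapt.

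The region score difference between diets, without single libraries, lay within -1.44 and -0.89 at 15 months and within -0.38 and 0.0052 at 5 months. Between older CR and younger AL mice it lay within 1.34 and 1.84. Over all comparisons of the score, leaving out a single library brought p under 0.05 in 2 results and took it above 0.05 in 2 others. An example of the former is the diet difference at 15 months without AL 15 months replicate 2 (exact permutation p = 0.0368). Using the absolute difference in the permutation test, an alternative chosen after seeing the data, changed no call of the region score, and of 40 tests of single genes it put 5 under 0.05 in place of 4.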
